A study of Mus musculus with 16 samples.

Results

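The casein genes encode the main proteins of milk: Csn1s1, Csn1s2a and Csn1s2b (alpha caseins), Csn2 (beta casein) and Csn3 (kappa casein). They are 5 of 18193 genes measured on these arrays and are read by 11 of 45101 probe sets, the groups of short oligonucleotides that each report on a transcript. Members were chosen by gene symbol. The set was put forward because Csn2 and Csn1s1 were already known to be lower in isolated mice at 20 weeks on these arrays, so all casein values at 20 weeks, and all comparisons that use those arrays, are descriptions without a test.

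Caseins are made by the secretory (alveolar) cells of the mammary epithelium. The alpha and beta caseins bind calcium phosphate and build the casein micelle, and kappa casein coats its surface and keeps it in suspension. Prolactin, acting through its receptor, the kinase JAK2 and the transcription factor STAT5, drives their transcription together with glucocorticoids, and the genes lie close together on a single chromosome. They are also transcribed at lower levels outside lactation.

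The mice were FVB/N females homozygous for an SV40 large T antigen transgene, which causes mammary tumours and is driven by the C3(1) fragment of the promoter of a rat prostatic steroid binding protein gene. Every group carried it, and no mice without it were analysed here. Mice were weaned at 21 days and kept either alone (isolated) or with other females (grouped), and RNA was taken from the whole thoracic mammary gland at 15 or 20 weeks of age. There were 4 arrays in each of 4 groups: grouped at 15 weeks, isolated at 15 weeks, grouped at 20 weeks and isolated at 20 weeks. Per the labels' protocols, every mouse was killed in estrus and at a fixed hour of darkness. Arrays are numbered within a group without a statement that each number is 1 mouse, so a p-value here measures the spread between arrays.

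Levels are on the log2 scale of the authors' RMA values, where 1 unit is a doubling. Array medians were 8.09 to 8.11 at 15 weeks and 8.31 to 8.34 at 20 weeks, and the arrays of each age share a distribution of their own. The ages may have been normalized or run separately, which no label records, so age cannot be told apart from either. The lower quartile of an array's values was 6.76 to 6.79 at 15 weeks and 6.98 to 7.04 at 20 weeks. These quartiles serve below as marks for low levels, under which a probe set was not shown to exceed background. Luminal epithelial markers had a mean over 16 genes of 10.67 to 11.59 in every array, which goes with the gland label. Skeletal muscle markers also read high, with list means of 12.48 to 13.92, so RNA of other tissue was measured too. In a whole gland, fewer cells of a type and less RNA per cell cannot be told apart.

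The promoters are shown because 3 caseins with a promoter entry in RefSeq (Csn1s1, Csn2 and Csn1s2a) are the 3 that were lower in every isolated array at 20 weeks. Each is the 250 bases before the transcription start, 5′ to 3′ on the strand of the gene, on build GRCm38.p6, with matches to TTCNNNGAA (the STAT5 motif) and ATTNGCAT (the octamer motif) in capitals. The first lies at chr5:87665958-87666207 on the plus strand, the second at chr5:87699426-87699675 on the minus strand and the third at chr5:87774200-87774449 on the plus strand.
Csn1s1: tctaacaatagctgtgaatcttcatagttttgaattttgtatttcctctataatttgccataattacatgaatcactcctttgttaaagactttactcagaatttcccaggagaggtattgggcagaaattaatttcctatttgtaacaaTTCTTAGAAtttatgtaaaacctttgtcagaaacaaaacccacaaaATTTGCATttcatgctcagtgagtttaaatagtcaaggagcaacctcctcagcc
Csn2: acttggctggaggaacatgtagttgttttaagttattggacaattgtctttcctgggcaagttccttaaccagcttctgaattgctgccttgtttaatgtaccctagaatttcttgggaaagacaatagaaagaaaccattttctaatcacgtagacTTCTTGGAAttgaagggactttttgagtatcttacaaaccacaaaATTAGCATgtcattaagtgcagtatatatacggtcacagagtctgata
Csn1s2a: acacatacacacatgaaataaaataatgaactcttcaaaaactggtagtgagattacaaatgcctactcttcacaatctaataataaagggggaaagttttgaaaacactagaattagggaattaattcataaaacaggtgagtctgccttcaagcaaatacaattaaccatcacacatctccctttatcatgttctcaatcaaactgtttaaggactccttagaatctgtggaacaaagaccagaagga

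Csn1s1 and Csn2 had the same layout of capitals, a STAT5 motif followed by an octamer motif. In Csn1s1 the STAT5 motif (TTCTTAGAA) lay at -100 to -92 and the octamer motif (ATTTGCAT) at -54 to -47, counted from the transcription start. In Csn2 the STAT5 motif (TTCTTGGAA) lay at -93 to -85 and the octamer motif (ATTAGCAT) at -48 to -41. The 250 bases before the Csn1s2a start held neither. Its STAT5 motif lay after the start, at 21 to 29, within this stretch at chr5:87774460-87774488 on the plus strand.
Csn1s2a after the start: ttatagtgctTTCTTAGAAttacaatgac

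Of 32851 promoter windows of 300 bases in the same table (250 before the start and 50 after), 8.3% held TTCNNNGAA and 3.15% held ATTNGCAT on either strand. A further pair of motifs was searched on both strands. CCATNTT, bound by YY1, was found at -2 to 5 in Csn1s1 and at -114 to -108 in Csn2, and in 16.1% of all windows. TGTTCT, a half-site of the glucocorticoid receptor, was found in Csn1s2a at -59 to -54, and in 19% of all windows. No casein match overlapped another in these windows. The motifs were chosen with the sequences in view, and a match describes letters, not a bound site.

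At 20 weeks, Csn2, Csn1s2a and Csn1s1 were lower in every isolated array than in any grouped array, while Csn1s2b and Csn3 overlapped between housing groups. The log2 differences (isolated minus grouped) were -4.26, -2.85 and -0.94 for these 3 genes, and -0.18 for Csn3 and 0.04 for Csn1s2b. At 15 weeks, the groups of all 5 genes overlapped and none passed the test. Mean levels of the 3 genes were lower at 20 than at 15 weeks in both housing groups, and the lowest values of each were in the isolated mice at 20 weeks.

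**Figure D1:**
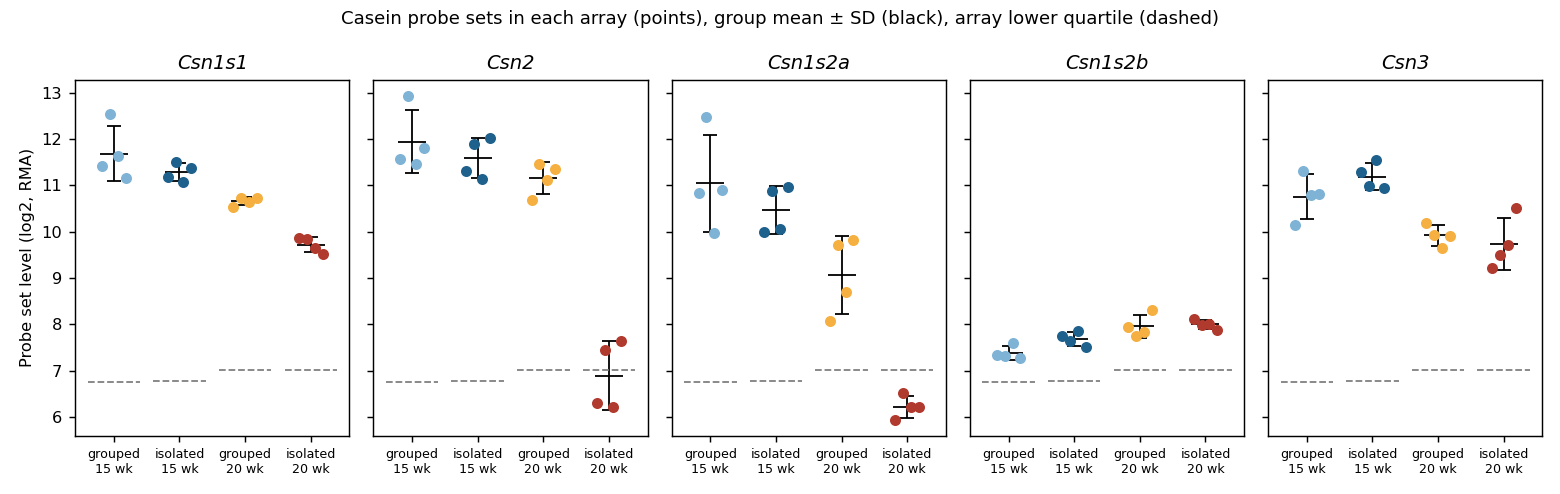
Level (log2, RMA) of the tested probe set of each casein gene on the vertical axis, 1 point per array, in the 4 groups of 4 arrays, with the group mean and SD in black and the mean lower quartile of the group's arrays dashed. Csn2 in isolated mice at 20 weeks spans 6.21 to 7.64, on both sides of the quartile line, and all 4 Csn1s2a values of that group lie below it, while Csn1s2b and Csn3 overlap between housing groups at both ages.

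Csn2 encodes beta casein, an abundant micelle protein whose promoter is a standard readout of prolactin signalling. Its tested probe set (1420369_a_at) read 10.69, 11.46, 11.12 and 11.36 in the grouped arrays at 20 weeks, and 6.31, 7.44, 6.21 and 7.64 in the isolated arrays. The isolated arrays fell into a lower pair (replicates 1 and 3) and a higher pair (replicates 2 and 4), and even the higher pair lay 3.05 below the lowest grouped array. The means were 11.16 ± 0.34 (SD, n = 4) and 6.9 ± 0.75, a difference of -4.26 (SE 0.33), or 19.1-fold. The lower pair was under the arrays' lower quartile, so the fold depends on a level not shown to exceed background. With all values under an array's quartile raised to it, the difference was -3.87.

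A second probe set of Csn2 (1420370_s_at, whose suffix marks probes shared by more than 1 transcript) gave a smaller gap. It read 9.53, 10.28, 10.22 and 10.41 in grouped and 7.93, 8.04, 8.05 and 8.38 in isolated arrays at 20 weeks. Groups were again apart, by 1.15, with a difference of -2.01 (SE 0.18), or 4.03-fold. No isolated value of this probe set was under the lower quartile, and its isolated arrays did not split into pairs (SD 0.19). Over all 16 arrays the levels of the pair of probe sets correlated at r = 0.958, which describes how the 4 groups differ as well as the spread within them.

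Csn1s2a encodes an alpha-S2 casein. Its tested probe set (1436170_a_at) read 8.07, 9.71, 8.7 and 9.83 in grouped arrays at 20 weeks and 5.95, 6.52, 6.21 and 6.22 in isolated arrays. Grouped arrays were widely spread, in the same order as their Csn2 levels except for replicates 2 and 4, and the groups were 1.55 apart. Means were 9.08 ± 0.84 (SD, n = 4) and 6.22 ± 0.23, a difference of -2.85 (SE 0.35), or 7.23-fold. All 4 isolated values were under the lower quartile, and with those raised to it the difference was -2.07.

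A second bright probe set of Csn1s2a (1420633_a_at) read 7.72, 9.33, 8.23 and 9.61 in grouped and 6.09, 6.16, 6.32 and 6 in isolated arrays at 20 weeks. Its difference was -2.58 (SE 0.36), close to that of the tested probe set, and the levels of the pair correlated at r = 0.997 over 16 arrays. The other 3 probe sets of this gene were dim at both ages: 1436488_at lay at 6.66 to 6.86, 1438694_at at 6.03 to 6.67 and 1455579_at at 4.62 to 5.3 over the 16 arrays. They were under the lower quartile in 13, 16 and 16 of 16 arrays, and their housing differences at 20 weeks were 0.06, -0.21 and -0.13 with overlapping groups. The separation between housing groups was thus seen in the brighter pair of 5 probe sets.

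Csn1s1 encodes an alpha-S1 casein that helps other caseins leave the endoplasmic reticulum. Its only probe set (1420627_a_at) read 10.54, 10.73, 10.64 and 10.73 in grouped and 9.86, 9.85, 9.66 and 9.52 in isolated arrays at 20 weeks. Both groups were tight and 0.68 apart, with means of 10.66 ± 0.09 (SD, n = 4) and 9.72 ± 0.16. The difference was -0.94 (SE 0.09), or 1.92-fold, and every value lay well above the arrays' lower quartiles.

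Csn3 encodes kappa casein, the micelle-coating member of a different gene family from the calcium-binding caseins. Its tested probe set (1419735_at) read 10.19, 9.94, 9.64 and 9.91 in grouped and 9.22, 9.5, 9.72 and 10.52 in isolated arrays at 20 weeks. Isolated replicate 4 was the highest of the 8 arrays and isolated replicate 1 the lowest, so the groups overlapped. The means were 9.92 ± 0.23 and 9.74 ± 0.56 (SD, n = 4 each), a difference of -0.18 (SE 0.25). Its second probe set (1451851_a_at) was dim, at 6.34 to 7.1 over 16 arrays and under the lower quartile in 14 of them.

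Csn1s2b, a second alpha-S2 type casein gene (1418221_at), read 7.95, 7.76, 7.83 and 8.31 in grouped and 8.12, 7.99, 8.01 and 7.89 in isolated arrays at 20 weeks. All values lay above the lower quartile and under the array median, and the groups overlapped. The means were 7.96 ± 0.24 and 8 ± 0.1 (SD, n = 4 each), and the difference was 0.04 (SE 0.11).

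Ranked by size among 18193 genes, the housing difference at 20 weeks was the largest for Csn2 (rank 1) and next for Csn1s2a (rank 2), and Csn1s1 stood at rank 50, Csn3 at 2571 and Csn1s2b at 12277. The first pair rests on isolated levels partly or wholly under the lower quartile, and with those raised to it Csn2 and Csn1s2a were still at ranks 1 and 2. Non-overlapping groups with the isolated arrays lower occurred in 3 of the 5 casein genes and in 2.0% of all genes, and 0.0110% of all genes passed at an adjusted p of 0.05 in limma. Since the set was chosen on this comparison, nothing is read from that excess. Csn1s1 had groups apart through little spread around a modest difference, and Csn2 and Csn1s2a through large differences.

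**Figure D2:**
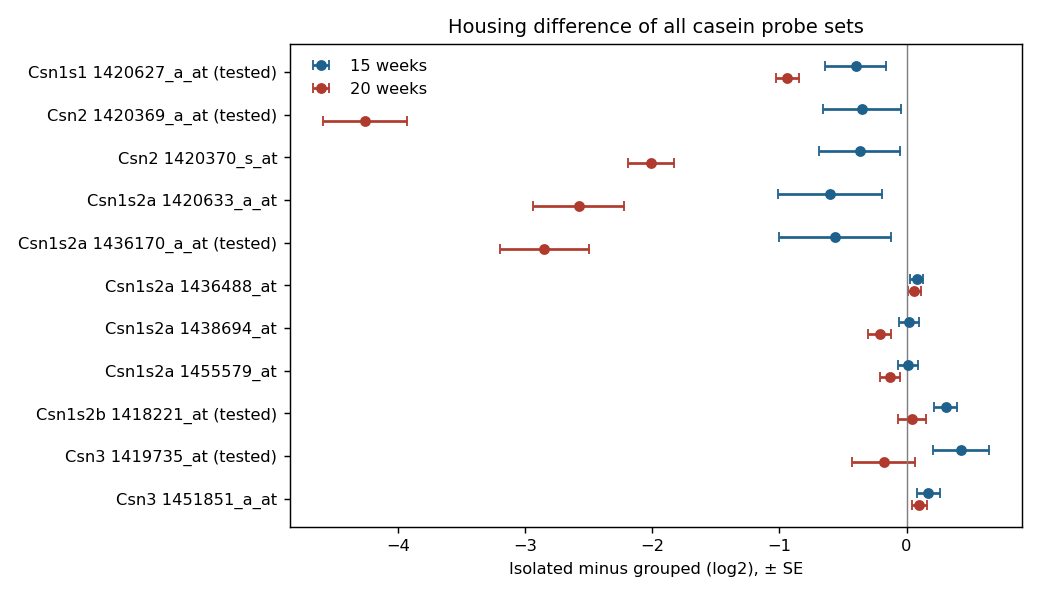
Difference of isolated minus grouped arrays (log2, horizontal axis) with its SE for all 11 casein probe sets, at 15 weeks (blue) and 20 weeks (red), 4 arrays per group. Both Csn2 probe sets and the brighter pair for Csn1s2a lie between -4.26 and -2.01 at 20 weeks, and the 4 dim probe sets of Csn1s2a and Csn3 lie near 0.

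The casein differences at 20 weeks were measured beside shifts in markers of other cells, whose part in the result was not tested. Luminal epithelial markers were lower in isolated mice in 14 of 16 genes (median -0.11), as were 53.3% of all genes. Their list means were 11.3 to 11.59 in grouped mice and 11.17 to 11.4 in isolated mice. Alveolar progenitor markers, the nearest list to the cells that make casein, spanned 10.65 to 10.97 and 10.61 to 10.96, so these groups overlapped. With the luminal list mean as a covariate the Csn2 difference was -3.7, that of Csn1s2a -2.54, that of Csn1s1 -0.96 and that of Csn3 0.22, against -0.18 without it.

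Adipocyte markers were lower in isolated mice in 13 of 13 genes (median -0.7), and macrophage markers were higher in 12 of 12 (median 0.59). These counts and those below are read against the 53.3% of all genes that were lower in isolated mice. Adipocyte list means ran from 11.73 to 12 in grouped and from 10.64 to 11.86 in isolated mice, and macrophage means from 10.38 to 11.76 and from 10.89 to 11.82. Endothelial (8 of 8, median -0.4) and skeletal muscle markers (11 of 11, median -0.55) lay lower, and fibroblast markers higher (9 of 9, median 0.32). None of these genes passed in limma over all genes. For RNA integrity, the Gapdh controls at the 3′ end minus those at the 5′ end read -0.04 to 0.02 in grouped mice and -0.06 to 0.01 in isolated mice, and with it as a covariate the Csn2 difference was -4.26.

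Housing at 15 weeks is the comparison that the choice of genes did not use, and here the casein differences could be tested. The 3 genes that differed at 20 weeks had lower means in isolated mice at 15 weeks too, by 0.35 to 0.56 on the log2 scale, and Csn3 and Csn1s2b had higher means, by 0.43 and 0.31. By limma with adjustment over 18193 genes, 0 of the 5 passed, against 0.0440% of all genes, and 1 of the 5 (Csn1s2b) had an unadjusted p under 0.05, as had 9.70% of all genes. All 5 pairs of groups overlapped, while 2.31% of all genes had isolated arrays entirely higher and 3.38% entirely lower.

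Csn2 read 11.57, 12.93, 11.46 and 11.81 in grouped and 11.32, 11.89, 11.13 and 12.02 in isolated arrays at 15 weeks. Grouped replicate 2 was the highest of the 8, and the rest were interleaved. The means were 11.94 ± 0.67 and 11.59 ± 0.43 (SD, n = 4 each), and the difference of -0.35 (SE 0.31) had an adjusted p of 0.695 in limma. Its second probe set differed by -0.37 (SE 0.32).

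Csn1s2a read 10.83, 12.47, 9.97 and 10.9 in grouped and 9.99, 10.89, 10.06 and 10.96 in isolated arrays at 15 weeks. Grouped replicate 2 was again the highest. The means of 11.04 ± 1.04 and 10.48 ± 0.52 (SD, n = 4 each) differed by -0.56 (SE 0.44, limma adjusted p = 0.661), and the second bright probe set by -0.6 (SE 0.41).

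Csn1s1 read 11.41, 12.53, 11.64 and 11.16 in grouped and 11.19, 11.51, 11.07 and 11.38 in isolated arrays at 15 weeks, with the same grouped replicate on top. The means of 11.68 ± 0.6 and 11.29 ± 0.19 (SD, n = 4 each) differed by -0.4 (SE 0.24, limma adjusted p = 0.594). Without grouped replicate 2, the differences of Csn2, Csn1s2a and Csn1s1 were -0.02, -0.09 and -0.12, so most of each came from that array.

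Csn3 read 10.14, 11.3, 10.79 and 10.81 in grouped and 11.28, 10.98, 11.55 and 10.94 in isolated arrays at 15 weeks. Here grouped replicate 1 was the lowest array and isolated replicate 3 the highest. The means of 10.76 ± 0.48 and 11.19 ± 0.29 (SD, n = 4 each) differed by 0.43 (SE 0.22, limma adjusted p = 0.544), and by 0.22 without grouped replicate 1.

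Csn1s2b read 7.34, 7.33, 7.61 and 7.27 in grouped and 7.75, 7.65, 7.87 and 7.51 in isolated arrays at 15 weeks. Only grouped replicate 3 reached into the isolated range. The means of 7.39 ± 0.15 and 7.7 ± 0.15 (SD, n = 4 each) differed by 0.31 (SE 0.09). In limma p was 0.00677, and the adjusted p over all genes was 0.352. With the luminal list as a covariate the difference was 0.37 and it passed (limma adjusted p = 0.0376), in a fit in which 765 genes passed, against 8 without the covariate.

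The Gapdh 3′ minus 5′ control lay at or above the grouped values in isolated mice at 15 weeks (-0.09 to -0.03 in grouped mice and -0.03 to 0.02 in isolated mice), and its part in the casein values was not tested apart from a covariate. With it as a covariate the differences turned to 0.14 for Csn1s1, 0.58 for Csn2 and 0.56 for Csn1s2a, none past the threshold, and stayed positive for Csn3 (0.72) and Csn1s2b (0.15). The direction of the first 3 genes at 15 weeks thus changed with this covariate. Luminal markers were higher in isolated mice in 10 of 16 genes at 15 weeks (median 0.03), while 54% of all genes were lower. Macrophage markers were lower in 12 of 12 (median -0.37), with list means of 11.12 to 11.37 in grouped and 10.64 to 11.08 in isolated mice, and their part in the casein values was not tested.

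The housing difference at 20 weeks minus that at 15 weeks was -3.91 (SE 0.5) for Csn2, the largest of 18193 genes in size, and -1.64 (SE 0.41) for the second Csn2 probe set. It was -2.29 (SE 0.63) for Csn1s2a, at rank 6. With low values raised to the quartile it was -3.53 for Csn2, still at rank 1, and -1.5 for Csn1s2a, at rank 24. The others were -0.61 (SE 0.36, rank 555) for Csn3, -0.54 (SE 0.29, rank 723) for Csn1s1 and -0.27 (SE 0.15, rank 2684) for Csn1s2b. The value of each of the 5 genes was negative, as was that of 52.3% of all genes. These casein values use the arrays that chose the genes and carry no test here.

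Between 15 and 20 weeks the same genes were compared within each housing group. The age values share arrays with the housing comparisons, and all-gene medians moved by 0.23 in grouped and 0.24 in isolated mice, so each is given as measured and net of that shift. In grouped mice Csn1s2a differed by -1.96 (SE 0.53, 3.9-fold), or -2.19 net, the most negative of all genes. Csn1s1 differed by -1.03 (SE 0.24, net -1.26), Csn3 by -0.84 (SE 0.21, net -1.07) and Csn2 by -0.78 (SE 0.3, net -1.01). Csn1s2b differed the other way, by 0.57 (SE 0.12, net 0.34).

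In grouped mice 2 casein genes (Csn1s1 and Csn1s2a) were lower in every 20-week array and 1 (Csn1s2b) higher. Over all genes 4.87% were entirely lower and 49.7% entirely higher, and limma called 6.41% lower and 56.0% higher. After quantile normalization, which removes the shift, limma called 3505 genes higher and 3517 lower, against 10196 and 1166 before it. For Csn2 the pair of probe sets did not give the same picture: the tested one overlapped between ages, while the other was apart, with a difference of -1.26 (SE 0.33).

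In isolated mice the age differences of Csn2, Csn1s2a, Csn1s1 and Csn3 were larger in size than in grouped mice, and that of Csn1s2b was smaller. Csn2 differed by -4.69 (SE 0.34, 25.9-fold, net -4.93) and Csn1s2a by -4.25 (SE 0.23, 19.1-fold, net -4.49), ranks 1 and 2 among the most negative genes. The levels at 20 weeks were under the lower quartile in 2 of 4 arrays for Csn2 and in 4 of 4 for Csn1s2a. With low values raised to the quartile the differences were -4.31 and -3.47, at the same ranks. The second Csn2 probe set, never under the quartile, differed by -2.9 (SE 0.16, 7.44-fold). Csn1s1 differed by -1.56 (SE 0.11, 2.96-fold, net -1.8) and Csn3 by -1.45 (SE 0.25, 2.73-fold, net -1.68). In this housing group the Csn3 groups did not overlap (gap 0.42), as the level at 15 weeks was 11.19 and that at 20 weeks 9.74. Csn1s2b differed by 0.31 (SE 0.08, net 0.07), so nearly all of its shift was that of the median gene.

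Lower at 20 weeks in every isolated array were 4 of 5 casein genes and 7.39% of all genes, and 1 casein gene and 52.7% of all genes were higher. Limma called 9.33% of all genes lower and 57.3% higher. After quantile normalization of the arrays together, which removes the shift of the distribution, the age differences in isolated mice were -4.93 for Csn2, -4.52 for Csn1s2a, -1.84 for Csn1s1, -1.73 for Csn3 and 0.09 for Csn1s2b. In grouped mice they were -0.96, -2.17, -1.23, -1.07 and 0.33 in the same order. The values net of the median and those after quantile normalization differed by at most a few hundredths of a log2 unit. Markers moved with age as well: adipocyte list means were 12.25 to 12.8 at 15 weeks and 10.64 to 12 at 20 weeks, and luminal means 10.67 to 11.13 and 11.17 to 11.59, neither of them net of the shift. The median age difference of the luminal list was 0.62 in grouped mice (all genes 0.23) and 0.39 in isolated mice (all genes 0.24), where 12 of 16 rose and 2 fell. Basal and myoepithelial markers had medians of 0.36 and 0.15, with 4 of 10 higher and 4 lower in isolated mice. Their part in the casein values was not tested.

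Ordered by group mean, Csn1s1, Csn2 and Csn1s2a followed one sequence: grouped at 15 weeks, isolated at 15 weeks, grouped at 20 weeks, isolated at 20 weeks. For each the first pair in that order overlapped, and for Csn2 the second and the third also did. Csn3 had another order, with isolated mice at 15 weeks on top, then grouped at 15 weeks, grouped at 20 weeks and isolated at 20 weeks, and its neighbours overlapped throughout. Csn1s2b ran the opposite way, from grouped mice at 15 weeks to isolated mice at 20 weeks, with overlap between all neighbours. All these orders are of measured levels, not net of the all-gene shift with age. Net of it, the age difference of Csn1s2b was 0.34 in grouped and 0.07 in isolated mice, so its order rests partly on that shift.

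Within a group, arrays with more Csn2 tended to have more Csn1s2a. Among the 8 arrays at 15 weeks, after each group's mean was subtracted, these levels had r = 0.96 and rho = 0.93. Leaving out the 2 arrays farthest from the median of Csn2, r was 0.86 over 6. In this and the like values below, the subtracted group means still held those 2 arrays, so their influence was not fully removed. At 20 weeks r was 0.54 and rho 0.55 over 8 arrays, and 0.65 over 6. In the isolated arrays of that age 4 of 4 Csn1s2a and 2 of 4 Csn2 values were under the lower quartile. Part of this spread was thus not shown to exceed background. All genes of an array share its RNA sample and hybridization, so these correlations describe the arrays and carry no p.

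Csn1s1 followed Csn2 less closely. At 15 weeks r was 0.83, rho 0.57 and r without those 2 arrays 0.44, so the relation leaned on them, and at 20 weeks r was -0.05 and rho -0.1. Csn3 and Csn2 had r = 0.29 at 15 weeks and 0.44 at 20 weeks, and -0.23 and 0.25 without the 2 farthest arrays. Csn1s2b ran against Csn2 at 15 weeks (r = -0.61, rho = -0.79, and -0.63 without 2 arrays) and weakly so at 20 weeks (r = -0.24, rho = -0.5, and -0.11).

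**Figure D3:**
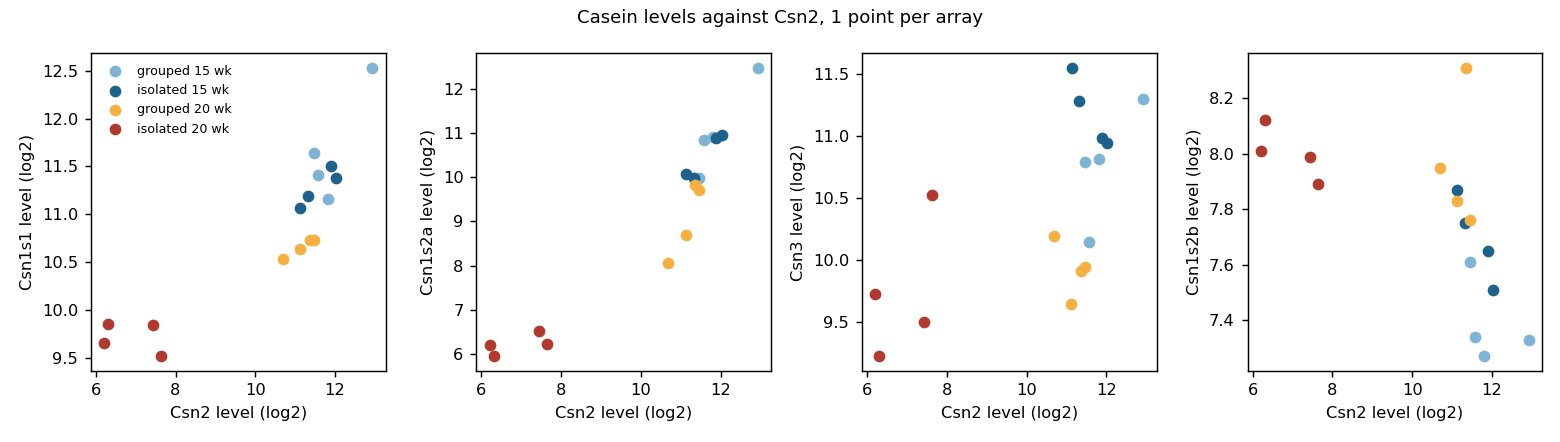
Level (log2) of the 4 other casein genes against the level of Csn2 (log2), 1 point per array, coloured by group. Csn1s2a and Csn1s1 are lowest in the isolated arrays at 20 weeks, where Csn2 is lowest, while Csn3 in those arrays (9.22 to 10.52) overlaps the grouped arrays at 20 weeks (9.64 to 10.19).

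Likeness to Csn2 was then measured over all 16 arrays for 18192 other genes. With each age's mean subtracted, which keeps housing differences, Csn1s2a was the most similar gene (r = 0.93, rank 1) and Csn1s1 stood at rank 13 (r = 0.814). Csn3 (r = 0.227, rank 5404) and Csn1s2b (r = -0.222, rank 13714) did not stand out. The 5 most similar genes that are not caseins were Ache, which encodes acetylcholinesterase (r = 0.849), Nbeal2 (0.843), the carboxylesterase gene Ces1d (0.843), Ralgapa1 (0.84) and the adipocyte hormone gene Adipoq (0.84). Their housing differences at 20 weeks were -0.41, -0.28, -1.23, -0.25 and -0.92, so this measure is led by the isolated arrays at 20 weeks. Csn2 and Csn1s1 were known to be lower in those arrays when the set was chosen, so nothing is read from the rank of Csn1s1. At 15 weeks alone the r of Ache was 0.239 and that of Csn1s2a 0.963.

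With each group's mean subtracted instead, which removes housing differences, other genes came first. They were Eif2ak2 (r = 0.865), which encodes an interferon-induced kinase, Rtp4 (0.865), the zinc transporter gene Slc39a9 (0.864), the phosphatase gene Ptpn4 (0.86) and Oasl2 (0.847), an interferon-induced gene. Csn1s2a was at rank 11 (r = 0.768), Csn1s1 at 265 (0.546), Csn3 at 1597 (0.368) and Csn1s2b at 16689 (-0.399). The housing differences of the 5 genes at 20 weeks ran from -0.18 (Ptpn4) to 0.25 (Oasl2), so none of them shared the gap seen for Csn2. Csn1s2a was the one casein near the top by both measures.

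The casein genes lie together, and their neighbours on the chromosome were examined next. In the RefSeq gene order (GRCm38.p6) Csn1s1, Csn2, Csn1s2a and Csn1s2b follow each other among the measured genes, then come Prr27 and Odam, and then Csn3. Of 17 other genes in the stretch from 5 genes before to 5 after the cluster, 8 were measured. None of the 8 passed in either housing comparison in limma, where 0.0440% of all genes passed at 15 weeks and 0.0110% at 20 weeks. None had non-overlapping groups at 20 weeks, against 2.21% of all genes entirely higher and 2.0% entirely lower. Counts of 0 thus do not set these 8 genes apart.

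Upstream of Csn1s1, the sulfotransferase genes Sult1b1, Sult1d1 and Sult1e1 differed by 0.06, 0.03 and -0.14 at 20 weeks, with all their values under the arrays' lower quartiles. Between the caseins, Prr27 differed by 0.04 and Odam, an enamel-associated protein gene related to the caseins, by 0.07. Past Csn3, Cabs1 differed by -0.02 and Smr3a by -0.04. Smr2, the outermost (11.2 ± 0.33 in grouped and 10.78 ± 0.28 in isolated arrays, SD, n = 4 each), differed by -0.42 (SE 0.18, limma adjusted p = 0.579). Smr3a and Smr2 are known from the salivary gland, whose marker list had means of 8.16 to 8.39 in grouped and 8.14 to 8.17 in isolated mice at 20 weeks. At 15 weeks the 8 differences ran from -0.07 to 0.12. Prr27 alone had groups apart, with isolated arrays higher (0.11, limma adjusted p = 0.525), as had 2.31% of all genes. At 20 weeks the groups were thus apart at 3 adjoining genes of a set chosen on these arrays. They overlapped at the measured genes on either side. Prr27, Odam, Cabs1 and Smr3a had group means of 7.18 to 8.17, under the array medians. The sulfotransferase probe sets were not shown to exceed background in any group.

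**Figure D4:**
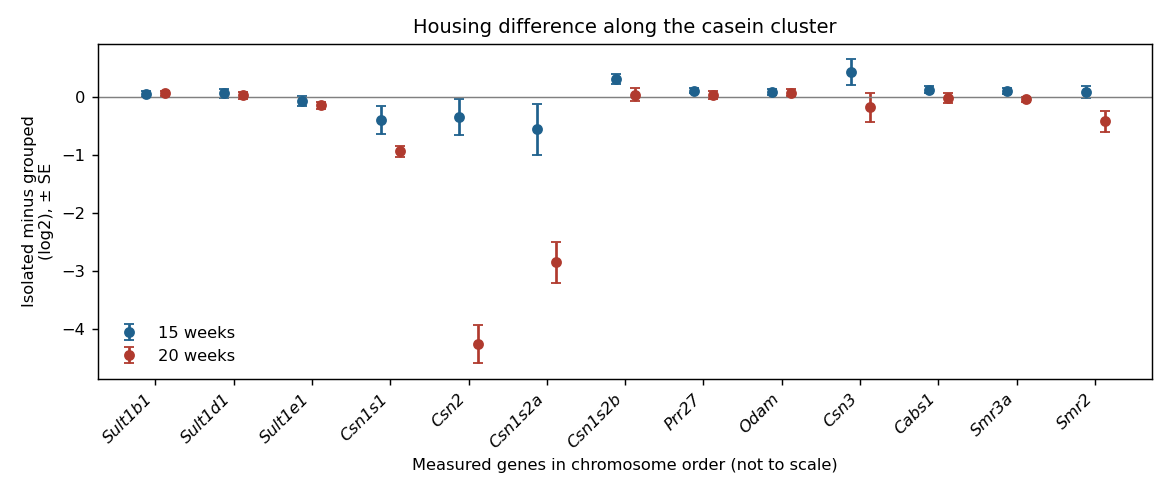
Difference of isolated minus grouped arrays (log2, vertical axis) with its SE for the 13 measured genes of the casein stretch in chromosome order, not to scale, at 15 weeks (blue) and 20 weeks (red), 4 arrays per group. Csn1s1, Csn2 and Csn1s2a lie at -0.94, -4.26 and -2.85 at 20 weeks, while the 8 genes that are not caseins lie between -0.42 and 0.07.

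Of 18 measured genes for whey proteins and the milk fat globule, 0 passed in limma at 20 weeks, where 0.0110% of all genes passed. A count of 0 thus does not set this list apart. The median difference of the 18 genes was -0.07, against -0.01 for all genes. It was -0.94 for the 5 caseins, which were chosen on this comparison. Wap, the whey acidic protein, differed by -0.39 (SE 0.08, adjusted p = 0.422 in limma) and Lalba, the alpha-lactalbumin that makes lactose synthase, by -0.25 (SE 0.06, limma adjusted p = 0.455). Both had isolated arrays entirely lower, as had 2.0% of all genes, yet in size they were far from Csn2. Wfdc18, a whey-type protein gene, differed by -0.13 and B4galt1, the galactosyltransferase partner of alpha-lactalbumin, by 0.12. A further pair, singled out after their values were seen, differed by about as much as Csn1s1 but with overlapping groups and wide errors: Cidea, a lipid droplet protein, by -0.96 (SE 0.79, limma adjusted p = 0.729) and Glycam1, a milk mucin-like protein, by 0.93 (SE 0.82, limma adjusted p = 0.744).

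At 15 weeks 0 of the 18 passed in limma, where 0.0440% of all genes passed, and the list median was -0.0. Plin2, a lipid droplet coat protein, was higher in every isolated array (0.35, SE 0.09, adjusted p = 0.284 in limma), as were 2.31% of all genes. Btn1a1, the butyrophilin of the milk fat globule membrane, differed by 0.32. Glycam1, which lymph node vessels also make, differed by -1.62 with an SE of 0.96. The named genes thus lay in both directions.

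With age, 9 of the 18 whey and fat globule genes rose and 2 fell in grouped mice, and 5 rose and 4 fell in isolated mice. Over all genes limma called 56.0% higher and 6.41% lower in grouped mice and 57.3% and 9.33% in isolated mice, and the all-gene medians above are part of each value. Muc1, an apical membrane mucin, rose by 0.95 (SE 0.09, limma adjusted p = 7.74e-05) in grouped and by 0.84 (SE 0.14) in isolated mice. With the luminal list as a covariate it was -0.15 in isolated mice. That list mean was 10.67 to 11.13 at 15 weeks and 11.17 to 11.59 at 20 weeks, without overlap. A fit with this covariate therefore cannot tell it from age, and nothing is read from the value. Cidea, which fat cells also express, differed by -0.99 (SE 0.26, limma adjusted p = 0.00775) and -1.9 (SE 0.73, limma adjusted p = 0.0422). Plin2 fell by 0.58 and, in isolated mice, fell by 1.12. Lalba differed by -0.61 (SE 0.09, limma adjusted p = 0.000407) in isolated and by -0.2 in grouped mice. In each housing group 4 of 5 caseins, a set chosen on the arrays at 20 weeks, had a negative age difference. So had 5 of these 18 genes in grouped and 6 in isolated mice, and 18.9% and 20.9% of all genes.

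The prolactin and STAT5 pathway, which activates casein transcription, had 13 measured genes of 14 listed. Prlr, the prolactin receptor gene, was not among the measured ones. In limma 0 of the 13 passed for housing at either age (median -0.02 at both). Of all genes 0.0440% passed at 15 and 0.0110% at 20 weeks, so a count of 0 does not set this list apart. At 20 weeks the STAT5 target and feedback inhibitor Cish differed by -0.39 (SE 0.12, limma adjusted p = 0.524), the caveolin gene Cav1, an inhibitor of JAK2 signalling that fat cells and vessels make in quantity, by -0.48, Socs2 by 0.24 and Elf5, the alveolar transcription factor, by -0.33 (SE 0.18). At 15 weeks Socs2, another STAT5 target, had a lower level in every isolated array (-0.49, SE 0.08, limma adjusted p = 0.0787), as had Cish (-0.19, SE 0.06, limma adjusted p = 0.393). Of all genes 3.38% were entirely lower in the isolated arrays at that age. The core members Jak2, Stat5a and Stat5b, singled out for their role after their values were seen, differed by -0.06, 0.05 and -0.14 at 20 weeks and by -0.02, 0.12 and -0.04 at 15 weeks. RNA levels say nothing of STAT5 phosphorylation, through which it acts.

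With age, 7 of these 13 genes rose and 3 fell in each housing group, against 56.0% and 57.3% of all genes called higher and 6.41% and 9.33% called lower in grouped and isolated mice. Socs3, a feedback inhibitor induced by cytokines, rose by 1.47 (SE 0.17, limma adjusted p = 0.000172) in grouped and 1.66 (SE 0.12) in isolated mice. The kinase gene Akt1 rose by 0.5 and 0.58, and Cav1 fell by 0.46 and, in isolated mice, fell by 0.76. With the luminal covariate, which cannot be told from age, Akt1 was -0.01 in grouped mice. Stat5a differed by -0.34 (SE 0.1, limma adjusted p = 0.0108) in isolated and by -0.27 in grouped mice. Socs2 differed by -0.41 in grouped mice and the other way, by 0.31, in isolated mice.

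Steroid and other regulators of casein transcription had 15 measured genes of 17 listed, without Areg and Pou2f1. In limma 0 of the 15 passed for housing at either age, as for nearly all genes (medians -0.01 at 15 and -0.07 at 20 weeks). At 20 weeks Esr1, the estrogen receptor, was lower in every isolated array (-0.45, SE 0.12, limma adjusted p = 0.465), as were 2.0% of all genes. Hsd11b1, which regenerates active glucocorticoid, differed by -0.53, Cebpa by -0.52 and the insulin receptor gene Insr by -0.37. At 15 weeks the named genes were Id2 (-0.29), Gata3 (0.24), Igf1r (0.14) and the glucocorticoid receptor gene Nr3c1 (-0.14), all with overlapping groups. Hsd11b1 and Cebpa are also expressed in fat cells, whose markers were lower in isolated mice at 20 weeks, and the part of that shift in these values was not tested.

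With age, 7 of the 15 regulators rose and 3 fell in grouped mice, and 6 rose and 5 fell in isolated mice, to be read against the same shares of all genes. Nfib, a transcription factor of milk genes, rose by 0.88 and 0.82. Yy1, a repressor at the Csn2 promoter, differed by 0.7 in grouped and by 0.81 in isolated mice. Hsd11b1 fell by 0.78 (SE 0.2, limma adjusted p = 0.00665) in grouped mice and, in isolated mice, fell by 1.21. The progesterone receptor gene Pgr fell by 0.64 and, in isolated mice, fell by 0.87. Id2, needed for alveolar growth, differed by 0.52 in grouped and by 0.88 in isolated mice.

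The genes that phosphorylate caseins, supply calcium or carry out secretion had 12 measured members, and 0 passed in limma for housing, again as for nearly all genes (medians -0.04 at 15 and -0.03 at 20 weeks). At 20 weeks the differences of the named members were 0.14 for Vamp8 and -0.11 for Rab3d, both of vesicle secretion, 0.09 for the Golgi calcium pump gene Atp2c1 and 0.17 for Fam20a, the partner of the casein kinase Fam20c. Rab3d turned to 0.08 with the probe set of largest variance. At 15 weeks they were 0.22 for Atp2c2, a related calcium pump, 0.26 for the calcium-sensing receptor gene Casr, -0.17 for Vps35, of the retromer, and -0.15 for Vamp8. With age, 8 rose in grouped and 9 in isolated mice and 0 fell. These shares of the 12 genes are read against the 56.0% and 57.3% of all genes called higher. In grouped and isolated mice the syntaxin gene Stx3 differed by 0.99 and 1.15, Casr by 0.73 and 0.39, and Atp2c1 by 0.45 and 0.61. With the luminal covariate, which cannot be told from age, Stx3 was -0.01 in grouped mice.

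**Figure D5:**
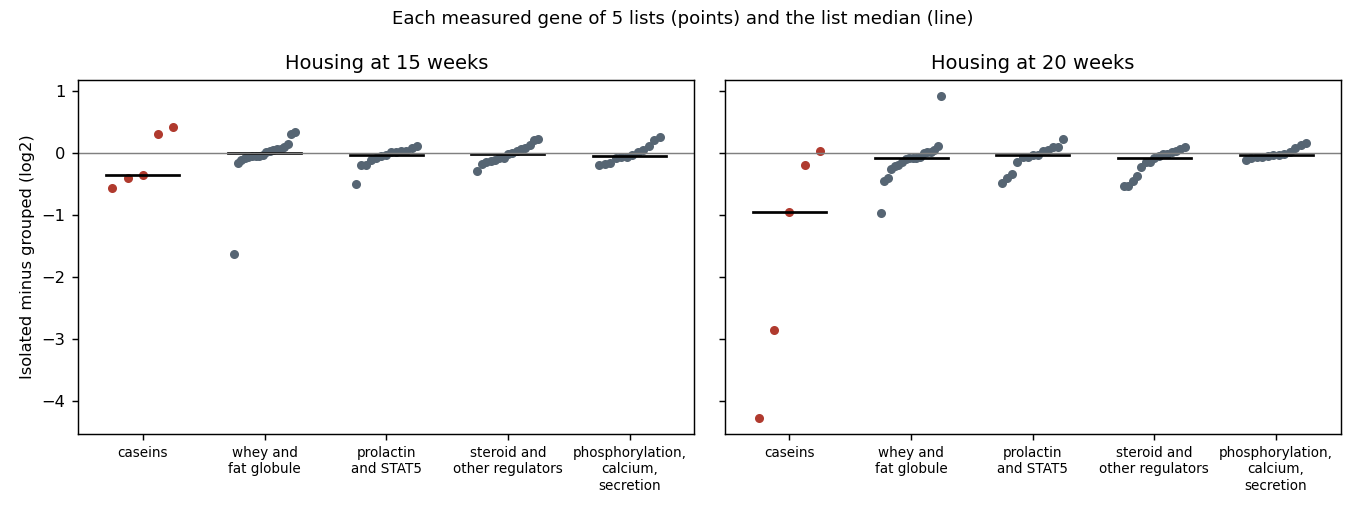
Difference of isolated minus grouped arrays (log2, vertical axis) at 15 and 20 weeks for each measured gene of 5 lists (points) with the list median (line). At 20 weeks 3 caseins lie at -0.94 or below, and the medians of the other 4 lists lie between -0.07 and -0.02.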

How the data were processed

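The authors deposited log2 values for 16 Affymetrix arrays. These were made with RMA (affy) per the submitters' processing notes, without a version. RMA removes background, gives arrays processed together a common distribution and summarises each probe set. Precision is limited by the number of arrays.

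Of 45101 probe sets, 64 are controls. The platform's gene annotation gave 1 symbol to 34945 of the rest. Of all probe sets, 932 had several symbols and 9211, some controls among them, had none. A gene (18193 in all) was represented by its probe set of highest mean over 16 arrays. Differences were fitted with limma 3.58.1 in R 4.3.3 (lmFit, eBayes with an intensity trend) on the 8 arrays of each comparison, and p-values were adjusted by Benjamini-Hochberg over all genes, with 0.05 as the threshold. The housing by age difference was fitted on 16 arrays. The fits were tested on simulated data. SD is over the arrays of a group and SE from the fit. Arrays of a group were no duplicates: the SD of the difference between any pair was 0.115 or more.

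The casein genes and all gene lists were chosen with earlier results of these data known. Named genes are all casein probe sets, the measured genes within 5 of the cluster, the 5 genes most like Csn2 by either measure, and from each list up to 4 members that passed with the largest difference, or else those with the smallest p. Some list genes are named for their role and marked so. Promoters come from RefSeq, which matched 3 of the 5 genes.

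Alternatives were quantile normalization, a filter at the 40th percentile, the probe set of largest variance, all probe sets, no intensity trend, the replicate number as a block, a luminal marker or Gapdh 3′ minus 5′ covariate, all 16 arrays in each fit and leaving out each array. Raising low values to each array's lower quartile was added after the data were seen.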

Additional observations from a re-analysis of the deposited data

Results flagged for a closer look

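Of 108 groups of 4 arrays looked at (casein probe sets and gene list means), 9 held an array far from the other 3, and chance gives about 1 in 20. For the caseins these were grouped replicate 2 at 15 weeks for the second probe set of Csn2 (1420370_s_at), at 12.5, and isolated replicate 4 at 20 weeks for the dim Csn1s2a probe set 1438694_at, at 6.15. The former array also had the highest level of the tested Csn2, Csn1s2a and Csn1s1 probe sets.

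The other 7 were list means. Isolated replicate 1 at 20 weeks stood apart for fibroblast (12.07) and skeletal muscle markers (12.48), isolated replicate 3 at 20 weeks for T cell markers (8.7), and grouped replicate 1 at 15 weeks for T cell (8.94) and B and plasma cell markers (9.54). The prolactin and STAT5 list mean stood apart in isolated replicate 1 at 15 weeks (9.44) and isolated replicate 4 at 20 weeks (9.8).

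The housing difference of Csn2 was unlike at both ages: that at 20 weeks minus that at 15 weeks was -3.91. The gene was chosen on the arrays at 20 weeks, so this is a description.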

How the results depend on the processing

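At 20 weeks the differences of Csn2, Csn1s2a and Csn1s1 were negative under each alternative with a value, and leaving out single arrays gave -4.5 to -4.03, -3.19 to -2.6 and -0.98 to -0.87. The Csn1s2a difference was -2.07 with low values raised to the lower quartile, and the filter at the 40th percentile left that gene and Csn1s2b out. The small Csn1s2b difference at 20 weeks ran from -0.03 to 0.16 without single arrays. At 15 weeks the Gapdh covariate gave 0.14 for Csn1s1, 0.58 for Csn2, 0.56 for Csn1s2a, -0.01 for Btn1a1 and -0.01 for Sult1d1. Its values hardly overlapped between the housing groups, so the fit can hardly tell it from housing. The luminal covariate gave 0.37 for Csn1s2b, past the threshold, and the cause of these changes was not tested.

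Other sign changes were small. Sult1e1 at 15 weeks was 0.02 with the floor and 0.0 without isolated replicate 2. At 20 weeks Rab3d was 0.08 with the probe set of largest variance, Sult1b1 and Sult1d1 were -0.01 with the floor, Sult1d1 was -0.01 without grouped replicate 2, and Cabs1 was -0.08 to 0.03 without single arrays. With the luminal covariate the age difference was -0.01 for Akt1 and for Stx3 in grouped mice and -0.15 for Muc1 in isolated mice. The luminal means of the 2 ages did not overlap, so these fits cannot tell the covariate from age.

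Counts over all genes moved more. For housing at 15 weeks 8 genes passed, 17 with the replicate block, 765 with the luminal and 2 with the Gapdh covariate, 2 with all 16 arrays, 3 with the floor, and 0 to 31 when single arrays were left out (0 without isolated replicate 1 or 2, 31 without grouped replicate 3). At 20 weeks 2 passed, 4 with every probe set, 0 with the luminal covariate, 8 with all 16 arrays, and 0 to 136 without single arrays (0 without grouped replicate 2 or 4, 136 without isolated replicate 4). For the housing by age difference 2 passed, 61 with the replicate block, 1 with the filter, 1 without the trend, 0 with the luminal covariate and 0 to 139 without single arrays. With age in grouped mice 11362 passed, 7022 after quantile normalization (3505 higher and 3517 lower, against 10196 and 1166), 6709 with the filter, 21882 with every probe set, 1012 with the luminal and 7559 with the Gapdh covariate. In isolated mice 12119 passed, 7759 with the filter, 23673 with every probe set and 2295 with the luminal covariate. The cause of these changes was not tested, beyond the fewer or more features in the filter and every probe set. In the age fits the luminal covariate cannot be told from age.

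Deviations of same-numbered arrays correlated at -0.1 to 0.36 at 15 weeks and -0.16 to 0.49 at 20 weeks, positive for some numbers and negative for others. The main fits used no pairing by replicate number, and whether the number marks one was not settled. A block cannot move the differences themselves here. It lowered their SE at 15 weeks, to 0.17 for Csn2, 0.25 for Csn1s2a and 0.05 for Csn1s2b, and none of the 5 caseins passed (adjusted p 0.109 for Csn1s2b).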
